A study of Mus musculus with 8 samples.

Results

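Potassium channel genes were followed across the cell types of the adult mouse heart in single-nucleus RNA data. The set held every gene whose symbol begins with Kcn, other than the antisense transcript Kcnq1ot1, and came to 98 of the 32285 genes in the files. By role it divided into 40 voltage-gated pore subunits, 17 auxiliary subunits, 15 inward rectifiers, 14 tandem-pore subunits, 8 calcium- or sodium-activated subunits and 4 noncoding transcripts. The study compared hearts of non-transgenic (nTg) mice with hearts of transgenic (Tg) mice that express cyclin A2 (Ccna2) constitutively, in females and males. The labels give the age as adult. They name no strain, and the promoter that drives the transgene is not given in the sources used here. Of the 8 samples, 5 were used: 1 nTg female, 2 Tg females and 2 Tg males. The count matrices of the other 3, all labelled nTg, were identical to those of the second Tg female and of both Tg males, and had a number of columns that differed from their own barcode lists. A row of 5 values below gives the nTg female first, then Tg females 1 and 2, and last Tg males 1 and 2.

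The targeted gene went against 2 of the labels. In cardiomyocyte nuclei Ccna2 stood at 447.9, 0.533, 847.6, 237.1 and 144.1 UMIs (unique molecules) per 1000000 UMIs of that cell type and library, the unit called CPM below. The library labelled nTg female 1 was therefore high and the library labelled Tg female 1, with 7 Ccna2 UMIs in all, was near 0. Xist was at 1277 to 1469 CPM in the 3 libraries labelled female and at 0.335 to 8.18 CPM in the 2 labelled male, as the sex labels say. Only 1 library carried the nTg label, so no comparison of genotypes had a replicate and none was tested. Libraries held 25045167 to 38593706 UMIs, and 34224 nuclei were kept, with a median of 2079 to 3053 UMIs per nucleus by library. Pairs of libraries shared 14 to 28 barcodes, at most 0.341% of the smaller library. Clusters were named from fixed marker genes, with the Kcn genes left out of the clustering. Among the 8 cell types with at least 50 nuclei in every library, each cluster carried at least 7 raised markers of its own type. Nothing in the labels says whether a library came from 1 heart or several, so the spread between libraries may be partly technical.

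Potassium channels let potassium ions leave or enter a cell along their gradient and so set the resting potential and end the action potential. Voltage-gated subunits open on depolarisation, inward rectifiers hold the resting potential, tandem-pore subunits carry background current, and calcium- or sodium-activated subunits answer to ions inside the cell. Auxiliary subunits form no pore but alter the gating, trafficking or pharmacology of the pore subunits they bind. In the heart these genes are best known from the cardiac action potential, and in vessels from the control of smooth muscle tone.

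Every pore subunit of this superfamily carries a short selectivity filter that potassium ions pass through, read from threonine or serine, any residue, glycine, tyrosine or phenylalanine, and glycine. The 5 codons of this signature were searched in frame in the longest complete coding sequence of each gene (GENCODE M21, mouse build GRCm38, the same assembly as mm10). Of 94 Kcn genes with a coding sequence, 77 held the signature (81.9%), against 572 of 21526 mouse genes (2.66%). All 40 voltage-gated, 15 inward rectifier and 8 calcium- or sodium-activated genes held it once. Among the 14 tandem-pore genes, 11 held it 2 times, and Kcnk1, Kcnk6 and Kcnk7 held it 1 time. None of the 17 auxiliary genes held it, so the signature separated pore genes from auxiliary genes without exception. The stretches below are shown because they come from pore genes with a highest mean of at least 20 CPM in one of the cell types described below. They are read on the coding strand, 5′ to 3′, with the 15 signature bases in capitals and 12 bases of coding sequence on either side, and the coordinates are those of the capitals.
Kcnj3 (chr2:55437627-55437641, + strand): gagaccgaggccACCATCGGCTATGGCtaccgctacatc
Kcnh2 (chr5:24325555-24325569, - strand): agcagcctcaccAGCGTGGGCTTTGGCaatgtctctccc
Kcnj11 (chr7:46099496-46099510, - strand): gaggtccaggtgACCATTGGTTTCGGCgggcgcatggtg
Kcnma1 (chr14:23528413-23528427, - strand): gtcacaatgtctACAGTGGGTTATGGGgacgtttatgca
Kcnt1 (chr2:25894367-25894381, + strand): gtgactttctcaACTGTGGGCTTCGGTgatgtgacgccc
Kcnj8 (chr6:142566448-142566462, - strand): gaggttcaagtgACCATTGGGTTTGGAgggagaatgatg
Kcnt2 (chr1:140425278-140425292, + strand): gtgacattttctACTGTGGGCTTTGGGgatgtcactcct
Kcnk2 (chr1:189256581-189256595, - strand): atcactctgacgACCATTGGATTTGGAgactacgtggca
Kcnc2 (chr10:112456229-112456243, + strand): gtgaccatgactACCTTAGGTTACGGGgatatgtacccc
Kcna5 (chr6:126533745-126533759, - strand): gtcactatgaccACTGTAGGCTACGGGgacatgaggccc
The fourth codon read tyrosine in 32 of the 40 voltage-gated signatures and phenylalanine in the other 8, Kcnh2 among them. Of the inward rectifiers, 13 of 15 read tyrosine, and the other 2 read phenylalanine. Both of these, Kcnj8 and Kcnj11, encode the pore of channels gated by adenosine triphosphate (ATP), and their lead cell types differed, as described below. Tandem-pore genes read phenylalanine in 14 of 25 signatures, among them the one shown of Kcnk2. Serine opened the signature in 3 of the 8 calcium- or sodium-activated genes. The sodium-activated Kcnt1 and Kcnt2 both read phenylalanine. No sequence is shown for Kcnd2, whose signature is split between exons.

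Of the 98 genes, 39 reached a mean of 20 CPM over the 5 libraries in at least 1 of the 8 cell types. They were 12 of the voltage-gated genes, 10 of the auxiliary genes, 7 inward rectifiers, 5 tandem-pore genes, 5 calcium- or sodium-activated genes and none of the noncoding transcripts. The nearest genes below that level were Kcne3 (19.8 CPM), Kcnv2 (18.9), Kcnq3 (17.3) and Kcnh4 (13.9), and the nearest above it were Kcne4 (23.6), Kcnj12 (30.3), Kcnj5 (31.5) and Kcnab2 (32.0). Kcns2, Kcnv1, Kcnk9, Kcnk15 and Kcnk16 had 0 UMIs in all nuclei. The highest means among the remaining inward rectifiers, tandem-pore genes, calcium- or sodium-activated genes and noncoding transcripts were those of Kcnj9 (9.30 CPM), Kcnk7 (9.30), Kcnn4 (11.03) and Kcnd3os (10.7). Summed over all 98 genes, the level was 5146 ± 811 CPM (SD, n = 5) in smooth muscle and 4905 ± 379 in cardiomyocytes, with overlapping ranges. It was 3312 ± 211 in endocardium, 2898 ± 289 in fibroblasts, 2507 ± 365 in pericytes, 1299 ± 44.5 in macrophages, 1045 ± 73.9 in endothelium and 800.3 ± 91.6 in lymphatic endothelium. The number of genes at 20 CPM or more was 19 in cardiomyocytes, 17 in smooth muscle, 16 in endocardium, 15 in pericytes, 9 each in endothelium and fibroblasts, 8 in macrophages and 7 in lymphatic endothelium. These levels are shares of each type's own UMIs. Scaling by the trimmed mean of M-values (TMM) over all cell types raised every cardiomyocyte level by a mean of 1.496-fold, to a summed 7347 ± 743 CPM, and put cardiomyocytes above smooth muscle (5044 ± 915).

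**Figure D1:**
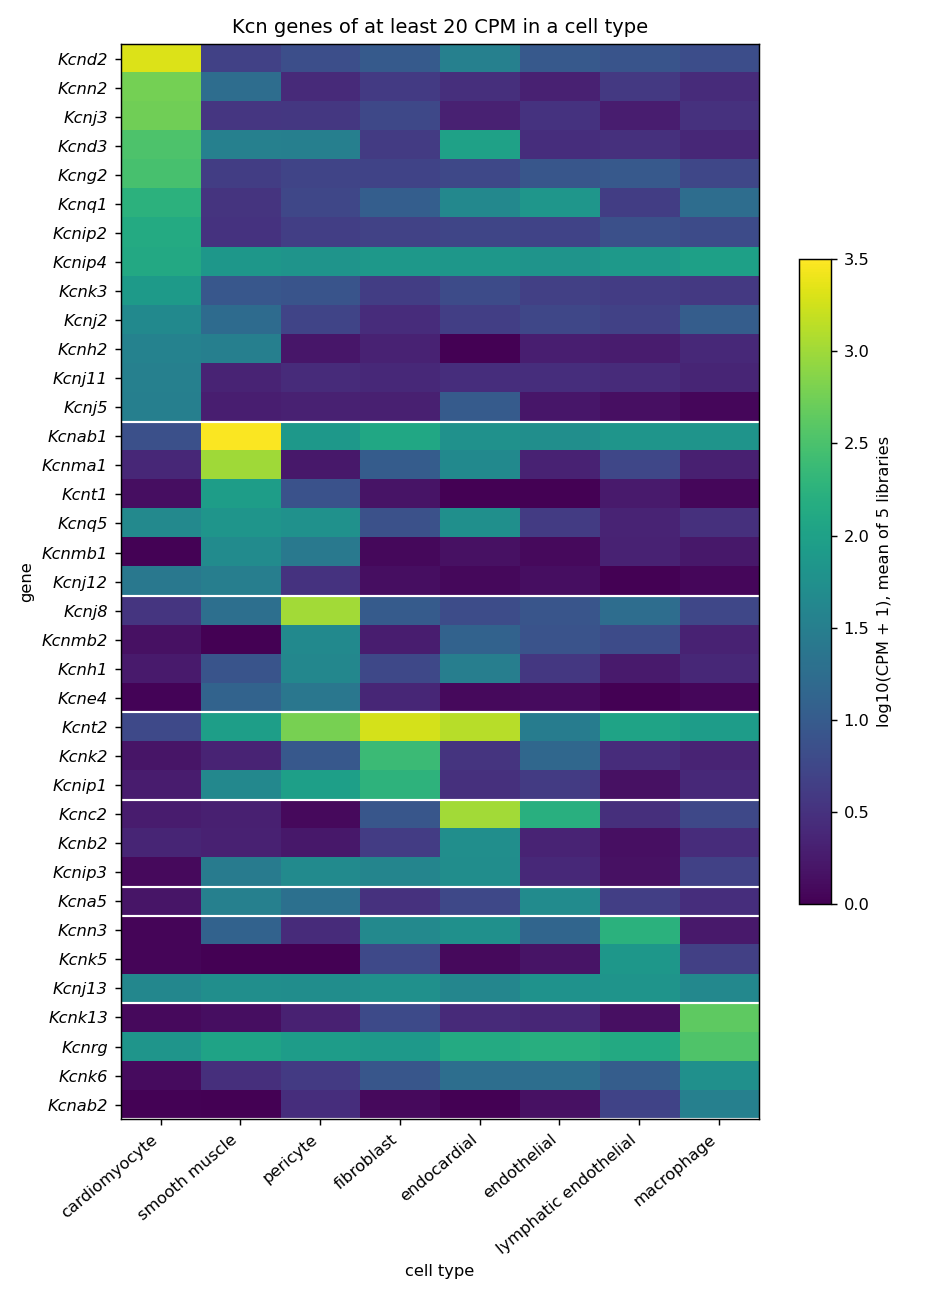
Heat map of 37 of the Kcn genes that reached a mean of 20 CPM in a cell type (rows, grouped by leading type between white lines) across the 8 cell types (columns). Colour gives log10(CPM + 1) of the mean of 5 libraries. Each cell type has its own bright block, from Kcnd2 in cardiomyocytes to Kcnk13 in macrophages, while Kcnip4, Kcnj13 and Kcnrg are spread over all columns.

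The lead of a cell type was largely the same in every library. Of the 39 genes, 27 (69.2%) were highest in 1 and the same cell type in all 5 libraries, against 47.0% of all genes that reached 20 CPM in a cell type. By leading type they were 11 of the 13 genes led by cardiomyocytes, 4 of 4 by macrophages, 3 of 6 by smooth muscle, 2 of 5 by pericytes, 2 of 3 each by endocardium, fibroblasts and lymphatic endothelium, and 1 of 2 by endothelium. Since clusters define the groups compared, these orders are a description and no test was made of one cell type against the rest. RNA set free from broken cells can reach other nuclei. The summed level of 8 abundant cardiomyocyte genes in the other 7 types was a median of 3.11% to 5.30% of that in cardiomyocytes, and a channel level at or below that share of its cardiomyocyte level was read as background.

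By mean level cardiomyocytes led for 5 voltage-gated genes, more than any other type, and for 4 of these in every library. One of them was the transient outward subunit Kcnd2 (chr6:21215503-21729805). Kcnd2 stood at 2261, 2541, 1851, 2033 and 1708 CPM, a mean of 2079 ± 331 (SD, n = 5). All 5 libraries lay at least 33.7-fold above the next cell type of the same library. In endocardium, the next type by mean, Kcnd2 was at 1.15% (median) of the cardiomyocyte level, which is below the free RNA share. Its relative Kcnd3 (chr3:105452330-105674002) was at 259, 298, 351, 339 and 402 CPM, with a mean of 329.8 ± 54.1, and was not limited to cardiomyocytes. Endocardium held Kcnd3 at 101 CPM, 39.99% (median) of the cardiomyocyte level and above the free RNA share in all 5 libraries. Smooth muscle (32.0 CPM) and pericytes (31.7 CPM) were above that share in every library as well. Kcnd3 overlaps Kcnd3os on the opposite strand and Gm43847 on its own strand, and whether the counting used strand is not given in the sources used here.

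Kcnip2, the calcium-binding partner of the Kcnd subunits in ventricular muscle, was at 157, 173, 134, 140.4 and 89.7 CPM in cardiomyocytes (139 ± 31.4). Its level was lowest in Tg male 2 and at most 6.198 CPM by mean in the other 7 types. Kcng2, which forms no channel alone and modifies Kcnb subunits, was at 297, 295, 309.9, 323 and 309.9 CPM (307 ± 11.6), the narrowest relative spread among the cardiomyocyte genes above 100 CPM. Kcnq1 (chr7:143106362-143427042), the pore of the slow delayed rectifier, was at 173, 214, 188, 157 and 149.7 CPM (176 ± 25.6). Endothelium followed with 67.9 ± 15.2 CPM and endocardium with 42.2, both above the free RNA share in every library. The imprinted antisense transcript Kcnq1ot1 overlaps Kcnq1, so reads of the pair may not be told apart. Kcnh2, the pore of the rapid delayed rectifier, was at 34.2 ± 5.15 CPM in cardiomyocytes and 31.5 ± 10.2 in smooth muscle, and cardiomyocytes led in 2 of 5 libraries only. These types did not differ in Kcnh2 beyond the spread of the libraries.

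Among inward rectifiers, cardiomyocytes led for Kcnj3, Kcnj5, Kcnj2 and Kcnj11. Kcnj3 (chr2:55435970-55598145), a subunit of the channel that acetylcholine opens through G proteins, was at 642, 651, 459, 426 and 568 CPM (549 ± 103). None of the other 7 types had more than 4.75 CPM by mean, 116-fold less. Kcnj5, its partner in the same channel, was at 27.6, 45.9, 28.0, 29.0 and 27.1 CPM. The library labelled Tg female 1 was the highest, while the other 4 lay within 27.1 to 29.0 CPM. Kcnj5 also reached 2.91 to 20.9 CPM in endocardium, a median of 25.1% of the cardiomyocyte level. Kcnj2, the main subunit of the classical inward rectifier, was at 46.5, 58.3, 37.4, 44.7 and 40.6 CPM, and smooth muscle followed with 15.8 ± 3.20. Kcnj11, the pore of the ATP-sensitive channel of cardiac muscle, was at 29.1, 31.6, 38.6, 34.5 and 29.7 CPM and at most 1.88 CPM by mean in the other 7 types. Whether intronic reads were counted is not given in the sources used here, so the CPM of different genes may depend on gene span. The 20 CPM level, the summed levels and genes named together elsewhere were not adjusted for span. Levels per kilobase of gene span are given here as a description. Per kilobase of gene span, Kcnj2 (4.27 CPM per kb), Kcnj11 (4.80) and Kcnj3 (3.39) were close to one another and to Kcnd2 (4.04).

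The calcium-activated Kcnn2 was at 470.5, 654, 484, 594 and 698 CPM in cardiomyocytes (580.1 ± 101), and smooth muscle followed with 0 to 30.03 CPM. The background channel Kcnk3 was at 74.3, 81.0, 68.9, 90.3 and 78.8 CPM, 9.79-fold above smooth muscle by mean. Kcnip4, another calcium-binding partner of Kcnd subunits, spread over all types. It was at 77.0, 77.6, 109, 187 and 200.1 CPM in cardiomyocytes and 91.6, 207, 55.3, 74.8 and 61.4 CPM in macrophages. Cardiomyocytes led in 3 libraries, and the overlap of the values means that no leading type can be given for it.

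Smooth muscle was marked by an auxiliary subunit and a calcium-activated pore. Kcnab1 (chr3:65109384-65378223), a cytoplasmic beta subunit of Kcna channels, was at 3252, 3383, 2201, 3199.8 and 3026 CPM (3012 ± 471), at least 18.4-fold above each of the other 7 types in each library. It overlaps A330015K06Rik on the opposite strand, which is itself among the leading genes of the smooth muscle cluster, so reads of the pair may not be told apart. Kcnma1 (chr14:23289431-24014491), the large-conductance calcium-activated channel that opposes constriction, was at 1392, 1124, 635, 892 and 1032 CPM (1015 ± 280.1). Its beta subunit Kcnmb1 was at 45.8, 51.3, 59.1, 46.5 and 37.5 CPM, above pericytes (18.5 to 39.2 CPM) in 4 of 5 libraries. Kcnmb1 lies within Kcnip1 on the opposite strand, and Kcnip1 was itself at 92.9 CPM in pericytes. The sodium-activated Kcnt1 was at 48.9, 22.2, 64.0, 173 and 131 CPM, with both males above all 3 females. Kcnq5, a voltage-gated subunit of the vascular M-type current, was at 156, 161, 0, 15.5 and 0 CPM, so 2 libraries were high and 3 near 0. Kcnj12, an inward rectifier related to Kcnj2, was at 30.3 ± 12.1 CPM in smooth muscle and 23.9 ± 5.13 in cardiomyocytes, which did not differ beyond the spread.

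Pericytes were marked by Kcnj8 (chr6:142564837-142571614), the pore of the vascular ATP-sensitive channel. It was at 1083, 1223, 724, 1041 and 1042 CPM (1023 ± 183), 57.5-fold above smooth muscle by mean. Per kilobase of gene span Kcnj8 was at 150.9 CPM, the highest of the 39 genes in its leading type, and Kcnrg in macrophages was next at 63.3. Kcnmb2, a beta subunit of the Kcnma1 channel, was at 51.0, 47.4, 32.0, 52.3 and 38.2 CPM, although Kcnma1 itself was at 0.701 CPM in the same nuclei. Kcnh1 was at 22.3 to 66.8 CPM in pericytes and 15.2 to 54.9 CPM in endocardium, with overlapping ranges. Kcne4, a single-span partner of Kcnq subunits, was at 16.7 to 37.7 CPM in pericytes and 6.195 to 17.1 CPM in smooth muscle, and led in pericytes in 4 of 5 libraries.

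Fibroblasts were the leading type of the sodium-activated Kcnt2 (chr1:140246158-140612067). It was at 1868, 2046, 1437, 1842 and 2233 CPM (1885 ± 296) in fibroblasts and 1523, 1428, 821, 1288 and 1573 CPM in endocardium. Fibroblasts led in each library, by 1.23- to 1.75-fold. Pericytes held 608 ± 142 CPM, while cardiomyocytes held 4.92 and endothelium 28.7. Kcnk2 (chr1:189207930-189402273), a tandem-pore channel opened by stretch and lipids, was at 204, 205, 286, 269 and 261 CPM (245 ± 38.0), 18.1-fold above endothelium. Kcnip1, a calcium-binding Kcnd partner, was at 129, 267, 135, 214 and 171 CPM in fibroblasts and 69.8, 102, 28.6, 70.7 and 194 CPM in pericytes. Fibroblasts were above pericytes in 4 libraries and below in Tg male 2. The Kcnd pore genes were low in fibroblasts, at 8.85 CPM for Kcnd2 and 3.07 for Kcnd3, both below the free RNA share of their cardiomyocyte levels in every library.

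Different pore genes had their highest mean in each of the 3 kinds of endothelium, and several were shared between kinds. Endocardium, the lining of the chambers, was the leading type of Kcnc2 (chr10:112271121-112467024), a fast delayed rectifier best known from interneurons. It was at 1105, 954, 1100.3, 1176 and 885 CPM (1044 ± 119.9) in endocardium and 151, 188, 80.0, 241 and 148 in the endothelium of vessels. Kcnb2 was at 38.7, 91.3, 47.0, 37.8 and 46.6 CPM in endocardium and at most 3.22 CPM by mean in the other 7 types. An unnamed cluster described below exceeded it in every library. Kcna5, an ultrarapid delayed rectifier, was at 54.8, 37.6, 22.9, 64.8 and 58.3 CPM in endothelium and 22.2 to 49.6 CPM in smooth muscle, with overlapping ranges. Kcnip3 was at 29.2 to 64.9 CPM in endocardium, 26.95 to 68.9 in pericytes and 38.4 by mean in fibroblasts, and these types were not separated. Lymphatic endothelium was the leading type of Kcnn3, a small-conductance calcium-activated subunit, at 205, 207, 157, 151 and 125 CPM (169 ± 36.1). Endocardium (56.8 CPM) and fibroblasts (42.9 CPM) followed. Kcnk5, an acid-sensitive tandem-pore subunit, was at 80.0, 99.9, 70.8, 74.4 and 24.9 CPM in lymphatic endothelium and at most 4.88 CPM by mean in the other 7 types. Outside the 8 types, 105 mesothelial nuclei held Kcnk5 at 42.0 to 93.7 CPM, on 28 UMIs, above all 8 types in 3 libraries. Kcnj13 was between 39.0 and 62.8 CPM by mean in all 8 types, and it overlaps Gigyf2 on the opposite strand.

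Macrophages led for 4 genes, each in all 5 libraries. Kcnk13 (chr12:99964499-100062682), a tandem-pore channel best known from microglia, was at 424, 489, 339.9, 391 and 483 CPM (425 ± 63.0), at least 55.0-fold above each of the other 7 types in each library. In groups outside the 8 types, Kcnk13 was at 64.5 to 246 CPM in 136 nuclei with MHC class II or Ccr2 myeloid markers, 29.7 to 171 CPM in Schwann nuclei and 26.9 to 136 CPM in an unnamed cluster of 127 nuclei led by Top2a and Diaph3. Kcnrg, which encodes a regulator that binds Kcna subunits and no channel, was at 339, 262, 381, 368 and 349 CPM, and the other 7 types held 65.8 to 154 CPM. The same 3 groups held Kcnrg at 215 to 328, 141 to 196 and 169.6 to 296 CPM. Kcnrg overlaps Dleu2 on the opposite strand. Kcnk6, a tandem-pore channel of macrophages with a role in inflammasome activation, was at 65.4, 50.5, 31.1, 76.9 and 60.6 CPM. Kcnab2, a beta subunit of Kcna channels, was at 33.9, 32.8, 26.5, 36.4 and 30.3 CPM in macrophages, while Kcnab1 was at 64.5 CPM in the same nuclei.

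**Figure D2:**
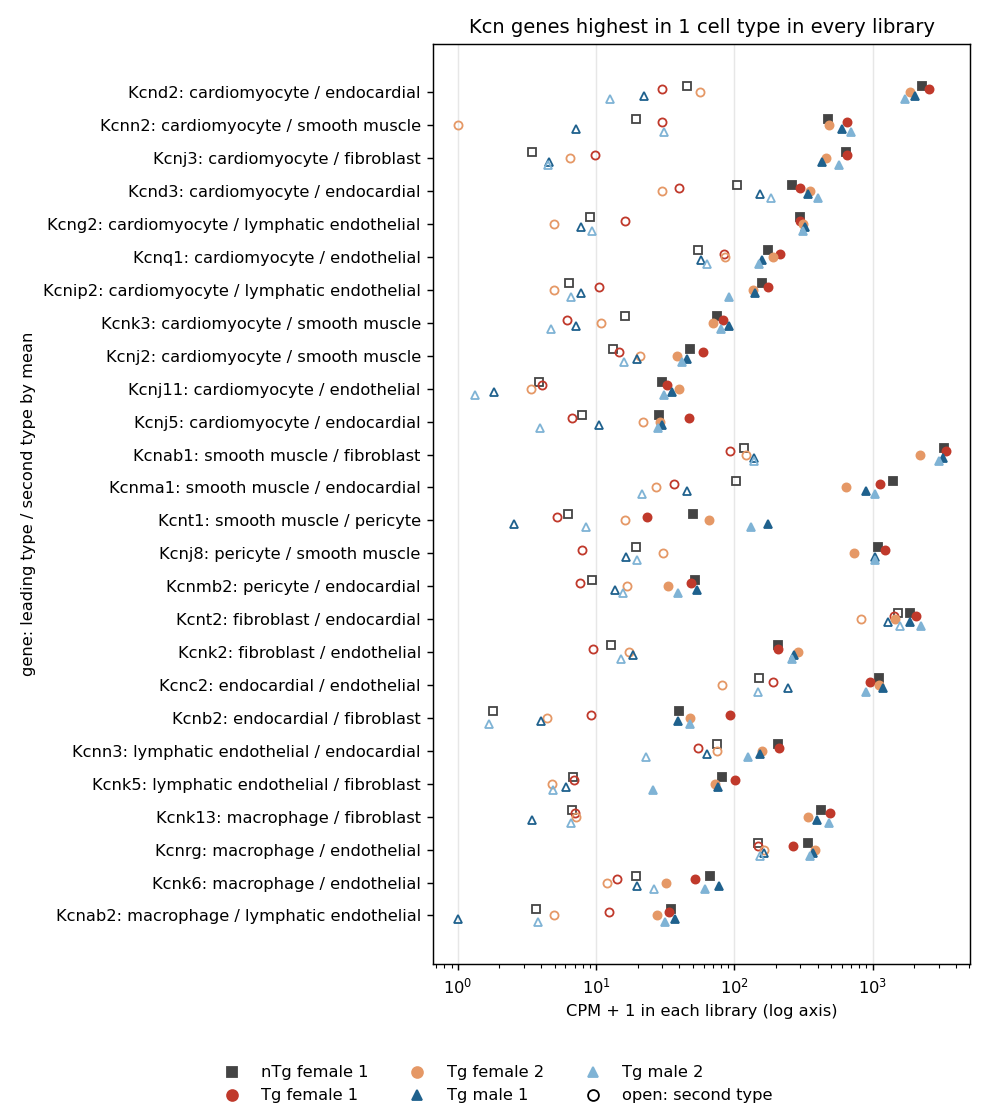
Level of 26 of the genes that were highest in 1 cell type in every library (rows), as CPM + 1 on a log axis. Filled symbols are the leading type and open symbols the type with the next highest mean, 1 symbol per library. The distance is widest for Kcnj3, Kcnk13, Kcnd2 and Kcnj8, and narrow for Kcnt2, where the second type lies close below.

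The share of nuclei with a UMI was also read at equal depth. Each nucleus was thinned to 1000 UMIs, which left out 0.905% of cardiomyocytes and 5.51% of macrophages, the lowest and the highest share of any type. Kcnd2 was then found in 68.3% of cardiomyocytes and 0.676% of endothelial nuclei, and unthinned in 90.8% and 1.498%, at median depths of 7032 and 1932 UMIs. Kcnj8 was found in 59.1% of pericytes and 0.291% of cardiomyocytes (unthinned 80.3% and 1.48%). Kcnt2 was found in 75.4% of fibroblasts, 54.6% of endocardial nuclei and 0.444% of cardiomyocytes (unthinned 91.8%, 68.8% and 2.10%). Kcnab1 was found in 81.7% of smooth muscle nuclei (unthinned 89.7%) and 0.615% of cardiomyocytes (3.51%), and Kcnk13 in 30.9% of macrophages (unthinned 48.3%) and 0.0485% of cardiomyocytes (0.177%).

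Within endothelium, channel genes followed the subtypes. Subclusters were compared where each library gave at least 20 nuclei, and a gene is named where it reached 20 CPM in a subcluster and its highest and lowest subclusters differed at least 3-fold by mean and in the same direction in every library. Of 14 Kcn genes at that level in endothelium, 9 met this rule, against 17.3% of all genes. Subclusters 4 and 5 carried 8 and 7 raised arterial markers, and the summed arterial list was 8155 to 11332 CPM in subcluster 4, 6751 to 9242 in subcluster 5 and at most 4945 in subclusters 1 to 3. Subclusters 1 (led by Kirrel3, Col13a1 and Nr2f2), 2 (led by Kit) and 3 (led by Btnl9, Cxcl12 and Unc5b) received no subtype name.

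Kcnc2 was almost confined to subcluster 1 among these 5, at 399, 559, 279.6, 689.8 and 477 CPM (481 ± 156). It was at 46.5 CPM by mean in subcluster 2 and 12.9 in subcluster 3, and had 3 and 5 UMIs in subclusters 4 and 5. The summed endocardial marker list was a median of 1023, 543, 339, 316 and 1949 CPM in subclusters 1 to 5 and 13835 in endocardium. The part of these markers in the Kcnc2 level of subcluster 1 was not tested. Kcna5 was at 62.6, 53.0 and 53.6 CPM in subclusters 1 to 3, 22.6 in subcluster 4, and had 1 UMI in subcluster 5. Kcnk2 was at 24.4 CPM in subcluster 1, 8.58 in subcluster 2, and had 0 UMIs in subcluster 5, which allows a level of up to 2.13 CPM (3 counts of the pooled total, counting error only).

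Other genes ran the opposite way and were highest in the arterial subclusters. Kcnq1 was at 126, 157, 138, 173 and 141 CPM in subcluster 4 (147 ± 18.1) and 135 ± 29.7 in subcluster 5, against 12.3, 21.9, 11.8, 14.01 and 13.2 CPM in subcluster 1. Of the calcium-activated genes, Kcnn4, the intermediate-conductance channel of endothelial hyperpolarisation, was at 77.4, 97.5, 99.1, 83.8 and 103 CPM in subcluster 5. Subcluster 4 held 18.03 CPM of it and subclusters 1 to 3 had 4, 2 and 2 UMIs. Kcnn3, the other channel of that response, was at 103, 151, 79.3, 68.8 and 46.3 CPM in subcluster 5 and 0 to 29.0 CPM in subcluster 4. The Kcne3 subunit, a partner of Kcnq1, was at 8.98 to 36.9 CPM in subcluster 5 (30 UMIs) and 10.8 by mean in subcluster 4. Kcnt2 was at 10.7 to 83.8 CPM in subcluster 5 and 5.14 in subcluster 3. Subcluster 5 was led by Cytl1 and had the highest endocardial list, and the part of this in its Kcnt2 and Kcnn3 levels was not tested.

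**Figure D3:**
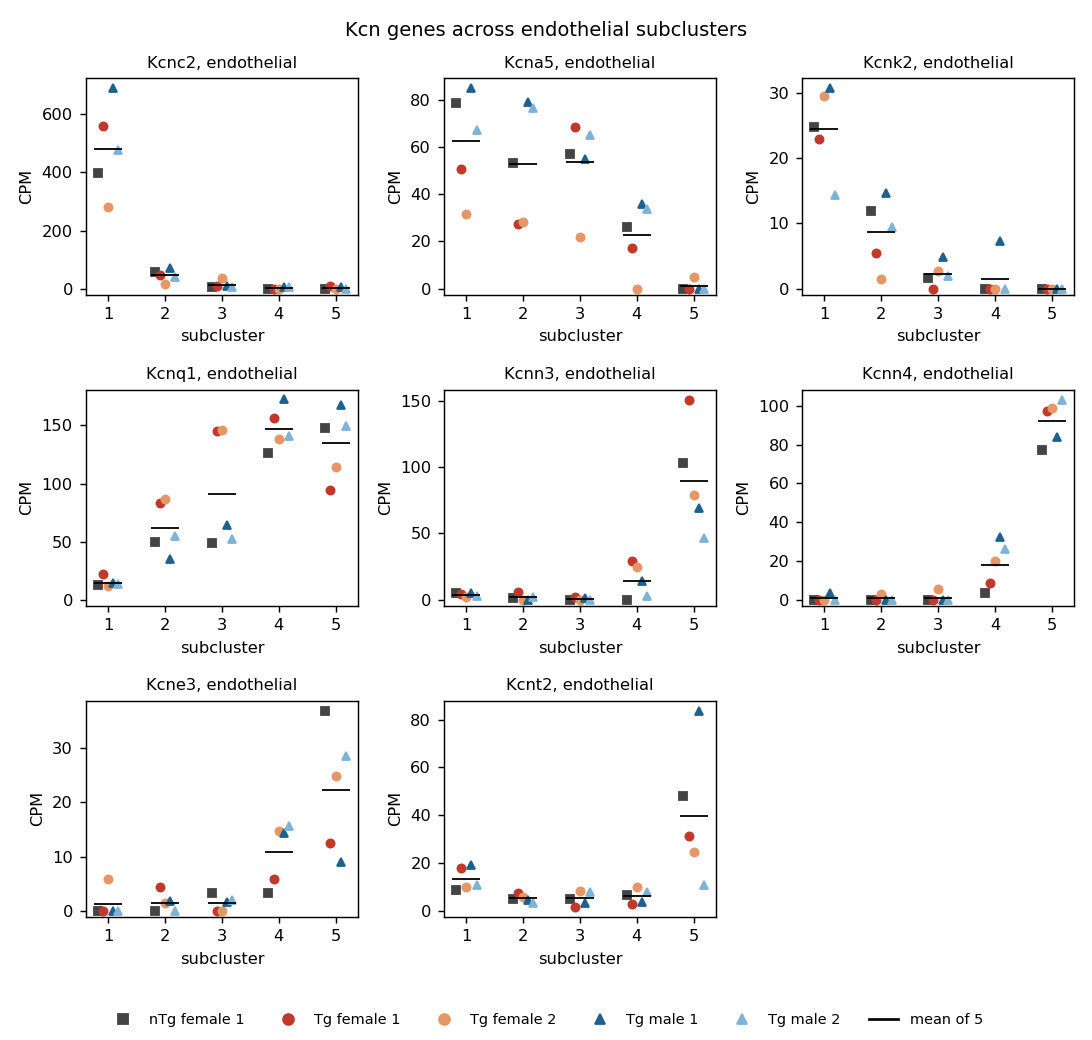
CPM of 8 Kcn genes (panels, linear axes) in endothelial subclusters 1 to 5, with 1 symbol per library and a bar at the mean of 5. Kcnc2, Kcna5 and Kcnk2 are highest in subcluster 1 and near 0 in subcluster 5, while Kcnq1, Kcnn3, Kcnn4 and Kcne3 are highest in subclusters 4 or 5.

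In fibroblasts, 6 of 13 Kcn genes at 20 CPM met the same rule, against 5.61% of all genes. Kcnip1 was highest in subcluster 1 (led by Blnk, Hsd11b1 and Gfra1), at 257, 594, 295, 384 and 305 CPM (367 ± 135). It was at 23.9 ± 19.7 CPM in subcluster 2, which carried 7 raised adventitial markers. Kcnk2 was at 256, 232 and 323 CPM in subclusters 1 to 3 and 87.5, 59.0, 39.97, 128 and 137 CPM in subcluster 4 (led by Nkain2 and Chrm3). Subcluster 3, led by Cilp and Postn, genes of matrix-producing fibroblasts, had the highest Kcnma1, at 35.7, 30.5, 36.0, 11.6 and 50.5 CPM. Subcluster 1 held 1.56 CPM of it. Subcluster 4 had the highest Kcnc2 (27.7, 43.5, 51.4, 81.2 and 38.7 CPM) and Kcnb2 (2.13, 21.1, 68.5, 22.7 and 3.52 CPM). Kcnb2 was uneven there, with 3 libraries above 20 CPM and 2 below 4. Endocardium is the leading type of Kcnc2 and Kcnb2, and the summed endocardial list was a median of 601.6 CPM in subcluster 4 and 201.9 to 335.7 in subclusters 1 to 3. The part of those markers in the 2 levels was not tested.

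In cardiomyocytes 1 of 20 Kcn genes met the rule, against 1.53% of all genes. Kcnip4 was at 124, 119.5, 255, 459 and 432 CPM in subcluster 3, led by Rp1 and Epha6, and at 60.8, 58.0, 71.7, 83.8 and 80.6 CPM in subcluster 2, led by Nppa, Nppb and Ankrd1. The levels of subcluster 3 split by library, with nTg female 1 and Tg female 1 low and both males high. In macrophages none of 10 Kcn genes met the rule, against 2.68% of all genes, over the 3 subclusters compared. Kcnab2 was at 38.3 CPM by mean in subcluster 1 and 20.7 CPM in subcluster 2, which carried MHC class II and Ccr2 markers. Kcnk13 was at 467 CPM by mean in subcluster 1 and 364 CPM in subcluster 2.

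**Figure D4:**
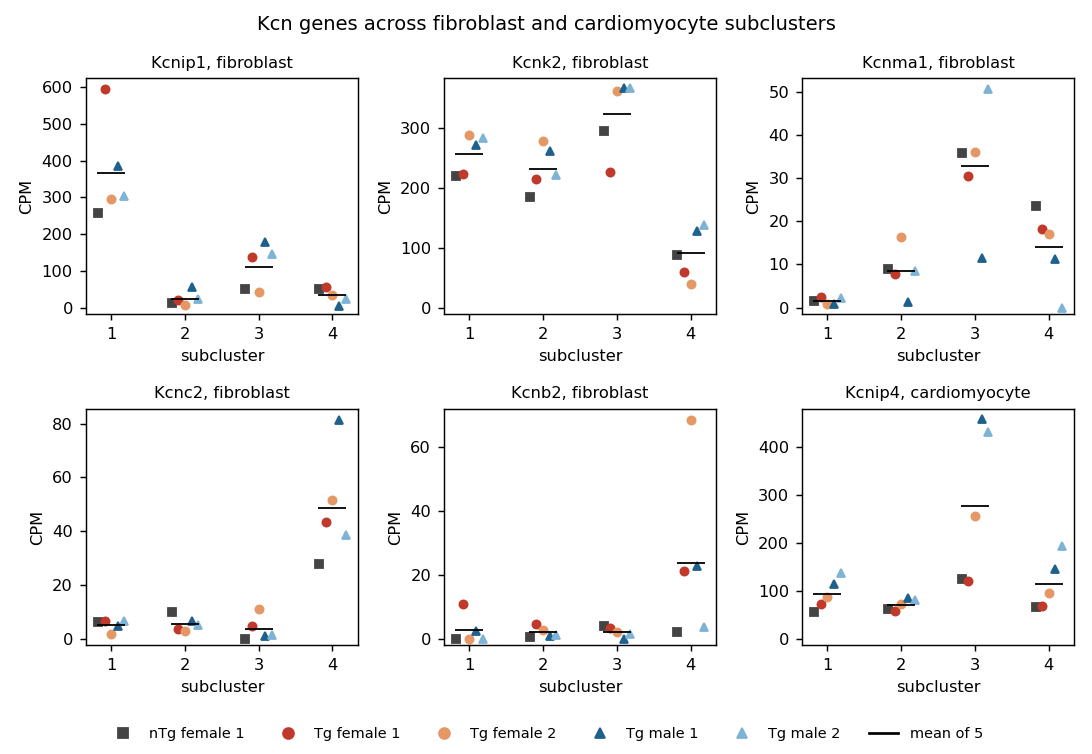
CPM of 5 Kcn genes in fibroblast subclusters 1 to 4 and of Kcnip4 in cardiomyocyte subclusters 1 to 4 (panels, linear axes), with 1 symbol per library and a bar at the mean of 5. Kcnip1 peaks in fibroblast subcluster 1, Kcnma1 in subcluster 3, and Kcnc2 and Kcnb2 in subcluster 4, where Kcnk2 is lowest.

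Groups too small for the 8-type comparison held channel genes at levels above those of the main types. The genes of this paragraph were chosen after their values were seen. In 181 Schwann nuclei, the glia of cardiac nerves, Kcna1 was at 897, 918, 704, 617 and 1431 CPM (451 UMIs), and no tested type exceeded 0.751 CPM by mean. Kcna2 (288 to 908 CPM), Kcna6 (336 to 857 CPM) and Kcnh8 (285 to 459 CPM) were also above all 8 types in every library. Kcnj10, the glial inward rectifier, was above them too, on 12 UMIs. Kcna6 overlaps Gm26673 on the opposite strand, which is itself among the leading genes of the Schwann cluster, so reads of the pair may not be told apart. In 126 T or NK lymphocytes Kcnq5 was at 1159, 1742, 360.0, 2684 and 4725 CPM, and in 71 B lymphocytes at 835, 1379.6, 895, 834 and 592 CPM, above all 8 types in every library in both. Kcnn4, the channel that sustains calcium entry in activated T cells, was at 46.2 to 169.6 CPM in T or NK lymphocytes, on 29 UMIs. In 105 mesothelial nuclei, 3 to 48 per library, Kcnd2 was at 5587, 2702, 2062, 4123 and 2433 CPM, above the cardiomyocytes of the same library in all 5.

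An unnamed cluster of 465 nuclei led by Dkk3 and Prg4, in which 8 of 8 valve or Prg4 fibroblast markers were at least 2-fold above fibroblasts in every library, held 4 Kcn genes above all tested types in every library. They were Kcnt2 (2346, 2247, 1705, 2587 and 2448 CPM), Kcnq5 (1607, 699, 552, 566 and 1076 CPM), Kcnb2 (72.7 to 258 CPM) and Kcnj15 (17.9 to 80.1 CPM). These genes, too, were chosen after their values were seen, as were those of the next cluster. The valve or Prg4 marker list shares Dkk3, Prg4, Wif1 and Comp with the leading genes of this cluster, so its 8 of 8 is a description only. An unnamed cluster of 123 nuclei led by Fgf12 and Fbn2, 7 to 39 per library, expressed the abundant cardiomyocyte genes at a median of 84.8% of the cardiomyocyte level. In it 6 of 10 conduction markers and 3 of 9 atrial markers were at least 2-fold above cardiomyocytes in every library. Of the conduction list, Cntn2 and Cpne5 are among the leading genes of this cluster. Its Kcnd2 was low, at 7.64% to 21.3% of the cardiomyocyte level of the same library. Kcng2 (399, 466, 525, 678 and 463 CPM), Kcnj5 (53.2, 84.2, 41.4, 77.7 and 61.7 CPM, 49 UMIs), Kcnh2 (39.9 to 96.7 CPM, 44 UMIs), Kcna4 (13.3 to 69.1 CPM, 34 UMIs) and Kcne1 (9.91 to 69.1 CPM, 21 UMIs) were above all 8 types in every library. In nTg female 1 the Kcna4 level rested on 1 UMI. Kcnj3 was at 651, 1764, 898, 1157 and 216 CPM and above all 8 types in 4 of 5 libraries. Kcnn2, Kcnk3 and Kcnip4 were also above all 8 types in 4 of 5 libraries. Kcnj3 and Kcnj5 encode the channel opened by muscarinic receptors, and Kcnd2 a transient outward channel.

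A fixed list of 11 genes outside the Kcn symbols that encode known partners was read in all types. Abcc9, the sulfonylurea receptor that assembles with Kcnj8 or Kcnj11, was at 4141, 4734, 3180.3, 4112 and 4290.1 CPM in pericytes and 235 ± 45.9 in cardiomyocytes. Abcc8, the other such receptor, was at 52.5, 60.7, 71.3, 50.6 and 42.6 CPM in cardiomyocytes and at most 0.852 CPM by mean in the other 7 types. Pericytes thus held Kcnj8 with Abcc9, and cardiomyocytes Kcnj11 with both receptors. Lrrc52, a gamma subunit of calcium-activated channels, was at 19.9, 49.8, 26.7, 48.2 and 21.3 CPM in cardiomyocytes, and Lrrc55, of the same family, at 53.0 ± 40.3 in endocardium and 48.3 ± 24.1 in endothelium. The gamma subunits Lrrc26 and Lrrc38 were at 0.0730 CPM or less by mean in all types, smooth muscle, the leading type of Kcnma1, included. The Kcnd partners Dpp6 and Dpp10 were low in cardiomyocytes, at 4.05 and 1.43 CPM. The scaffold Dlg1 was at 1183 ± 221 CPM in lymphatic endothelium and at most 379 by mean in the other 7 types. Akap9, a scaffold of Kcnq1 channels, was at 149 to 298 CPM in all types, and Amigo1 was at 8.35 CPM or less.

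A fixed list of 16 pump, cotransporter and counter-ion channel genes was also split by cell type. The sodium pump subunit Atp1b1 (147 ± 24.0 CPM) and the pump regulator Fxyd1 (223 ± 39.4 CPM) led in cardiomyocytes in every library. The sodium-potassium-chloride cotransporter Slc12a2 was at 998, 1131, 822, 979 and 928 CPM in pericytes and at most 89.8 by mean in the other 7 types. Its potassium-chloride relative Slc12a7 led in cardiomyocytes (164 ± 20.8 CPM). The counter-ion channels of the sarcoplasmic reticulum were divided, with Tmem38a in cardiomyocytes (199 ± 11.2 CPM) and Tmem38b in smooth muscle (148 ± 10.7 CPM). Atp1b3 led in endocardium (366 ± 80.2 CPM) and Fxyd6 in lymphatic endothelium (202 ± 11.8 CPM), each in every library.

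Between the sexes, the Kcnd3 gene of endocardium and the Kcnt1 gene of smooth muscle passed the test, and both were higher in males. Summed UMIs per library and cell type were compared with edgeR's quasi-likelihood test, with genotype label as a covariate, so that the estimate rested on 2 female and 2 male libraries labelled Tg. Of 214 tested pairs of a Kcn gene and a cell type, 2 (0.935%) had a Benjamini-Hochberg adjusted p under 0.05 over all genes of that type, against 0.285% of all genes. At an unadjusted p under 0.05 there were 39 such pairs (18.2%), against 7.69% of all genes. They were 8 of 44 in cardiomyocytes (6.98% of all genes), 7 of 22 in endocardium (7.30%), 7 of 33 in endothelium (8.78%) and 7 of 48 in fibroblasts (9.33%). Pericytes gave 3 of 21 (6.58%), smooth muscle 3 of 19 (5.09%), macrophages 3 of 19 (8.95%) and lymphatic endothelium 1 of 8 (6.36%). No Kcn gene passed the adjusted threshold in lymphatic endothelium, macrophages or pericytes, where 0.448%, 0.470% and 0.200% of all genes did. One of the female libraries, that labelled Tg female 1, went against its genotype label. The fit without it rested on 1 female library labelled Tg. Its values for Kcnd3 in endocardium and Kcnt1 in smooth muscle are given below. The number of calls moved with the settings, from 0 without the genotype covariate to 14 without a filter on low counts. Calls over all genes moved too. In fibroblasts they were 72 of 16138, with 15 of 15319 without the covariate and 723 of 24358 without the filter.

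Kcnd3 in endocardium was at 104, 38.6, 28.7, 151 and 183 CPM. Both males lay above all 3 females, and the nTg female lay between the Tg females and the males. The log2 difference (female minus male) was -2.31 (SE 0.268, adjusted p = 0.00204) by edgeR's quasi-likelihood test, where 0.316% of all endocardial genes were called. The call held without the library labelled Tg female 1 (-2.60, adjusted p = 0.0250 by edgeR) and ended without the genotype covariate (-1.53, adjusted p = 0.185 by edgeR). The summed cardiomyocyte markers in the same nuclei were 1873, 1544 and 1840.0 CPM in the females and 1571 and 1602 in the males. By this sum the males lay within the range of the females. In cardiomyocytes themselves Kcnd3 was at 259, 298, 351, 339 and 402 CPM.

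Kcnt1 in smooth muscle was at 48.9, 22.2, 64.0, 173 and 131 CPM, on 133 UMIs in all. The log2 difference was -2.03 (SE 0.434, adjusted p = 0.0359) by edgeR, where 0.341% of all smooth muscle genes were called. The call was lost without the library labelled Tg female 1 (-1.20, adjusted p = 0.280), without Tg male 1 (-1.78, adjusted p = 0.109), without Tg male 2 (-2.16, adjusted p = 0.9998) and under 4 further settings of edgeR or DESeq2. Pericyte markers summed to 2345, 2422 and 3329 CPM in the smooth muscle nuclei of the females and 3435 and 3044 in those of the males, and their part in the result was not tested.

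No other Kcn gene passed. In cardiomyocytes the lowest unadjusted p belonged to Kcnq5, at 48.9, 65.5, 56.7, 26.6 and 17.8 CPM, with a log2 difference of 1.42 (SE 0.235, adjusted p = 0.232) by edgeR, where 0.0250% of all genes were called. Kcnip4 in cardiomyocytes was at 77.0, 77.6, 109, 187 and 200.1 CPM, with both males above all females, and gave -1.10 (SE 0.201, adjusted p = 0.275) by edgeR. Kcnk1, a weak tandem-pore subunit, had 38 UMIs and gave -3.73 (SE 1.04, adjusted p = 0.486) by edgeR. In endothelium, where 0.164% of all genes were called, Kcna5 gave -1.06 (SE 0.241, adjusted p = 0.203), Kcnj2 1.65 (SE 0.485, adjusted p = 0.315) and Kcnk6 -0.91 (SE 0.273, adjusted p = 0.329) by edgeR. In fibroblasts, where 0.446% were called, Kcnip3 gave -1.22 (SE 0.310, adjusted p = 0.2), Kcnj6 -5.13 (SE 1.47, adjusted p = 0.265) on 43 UMIs and Kcnn3 0.49 (SE 0.175, adjusted p = 0.397) by edgeR. Of the partner and pump lists, none of 11 and none of 16 genes had an adjusted p under 0.05 in any type by edgeR. Unadjusted, 2 of 8 partners tested in cardiomyocytes and 2 of 8 in fibroblasts had a p under 0.05, against 6.98% and 9.33% of all genes. At most 1 did in each other type, against 5.09% to 8.95%. Of the pump genes, 8 to 15 were tested in a type and at most 2 had an unadjusted p under 0.05, against 5.09% to 9.33% of all genes.

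Single libraries stood apart for many channel genes. The rule was a level at least 2-fold above or below the mean of the other 4 libraries and outside their range, for pairs of a gene and a cell type with a mean of at least 20 UMIs. Of 140 such Kcn pairs, 43 (30.7%) had at least 1 library apart, against 8.47% of all genes. At a mean of at least 50 UMIs they were 13 of 80 (16.2%), against 4.92%, with 16 departures, against 6.29 departures per 100 pairs of all genes. Some pairs had both a high and a low library, which gave 64 departures in all (10.8 per 100 pairs of all genes), 9 in nTg female 1, 11 in Tg female 1, 15 in Tg female 2, 10 in Tg male 1 and 19 in Tg male 2. By all genes Tg female 2 departed most often, in 4.44% of pairs against 1.16% to 2.06% for the others. Since the nTg label stood on 1 library, its 9 departures were read as those of 1 library and not of a genotype. Intervals below are 95% exact Poisson intervals and cover counting error only.

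In cardiomyocytes, Kcnj6, a G-protein-gated inward rectifier, was at 24.4 CPM (interval 20.6 to 28.7) in Tg female 2 and at 2.41 to 4.79 CPM in the others. Kcnj6 overlaps Gm41505 on the opposite strand, which is among the leading genes of a cardiomyocyte cluster, so reads of the pair may not be told apart. Kcnj8 and Kcne1 were also highest in Tg female 2, at 5.17 and 5.51 CPM against 1.31 to 2.74 and 1.59 to 3.04. Pericytes held Kcnj8 at a mean of 1023 CPM, and the part of pericyte RNA in its cardiomyocyte level was not tested. Kcnq5 was lowest in Tg male 2, at 17.8 CPM (interval 15.4 to 20.6), with 26.6 CPM in Tg male 1 and 48.9 to 65.5 in the females. Kcna4 was lowest in the same library (3.08 CPM, others 5.84 to 10.5), and Kcnc1 was highest in Tg male 1 (5.20 CPM, others 1.60 to 2.90).

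Endocardium had 14 departures over 16 pairs, against 11.7 per 100 pairs of all its genes, and smooth muscle 7 over 9, against 17.5. Kcnma1 was at 101 CPM (interval 79.0 to 127) in the library labelled nTg female 1 and 20.4 to 44.1 CPM in the others, and smooth muscle markers in these nuclei summed to 26.2 CPM there and 18.9 to 111 in the others. Kcnb2 was at 91.3 CPM (interval 74.0 to 111) in the library labelled Tg female 1 and 37.8 to 47.0 CPM elsewhere. Kcnn3 was at 21.8 CPM (interval 12.2 to 36.0) in Tg male 2 and 53.6 to 73.2 CPM elsewhere. Kcnd3, Kcnd2, Kcnq1, Kcnq5 and Kcnh1 departed in Tg female 2, a male library or nTg female 1, with ranges of 28.7 to 183, 11.6 to 54.9, 17.8 to 73.2, 28.3 to 88.9 and 15.2 to 54.9 CPM. Endocardial Kcnd2 exceeded the free RNA share of its cardiomyocyte level in no library, so its level is background by the rule above, and the 14 departures include it.

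In endothelium Kcnc2 was lowest in Tg female 2, at 80.0 CPM (interval 68.4 to 93.1) against 148 to 241 CPM, and so was Kcna5, at 22.9 against 37.6 to 64.8 CPM. Kcnn3 was highest in Tg female 1 (21.8 CPM) and lowest in Tg male 2 (5.86). Kcnt2 (14.3 to 47.6 CPM), Kcnj8 (3.17 to 14.3 CPM) and Kcnmb2 (1.63 to 10.9 CPM) departed as well. The part of pericyte RNA in the endothelial Kcnj8 level was not tested. In fibroblasts Kcnma1 was lowest in Tg male 1, at 3.39 CPM (interval 2.20 to 5.01) against 10.0 to 12.9 CPM, and Kcnip3 was lowest in Tg female 1, at 19.2 CPM (interval 16.4 to 22.4) against 21.1 to 63.2. The other fibroblast departures were of genes under 10 CPM by mean, Kcnb2, Kcnd3, Kcnj3, Kcnk3, Kcng2, Kcnj9, Kcnh7 and Kcnk13, with single-library levels of 0.485 to 9.10 CPM. Fibroblast Kcnd3, Kcnj3 and Kcng2 exceeded the free RNA share of their cardiomyocyte levels in no library, and by the rule above these levels are background. Kcnk3 exceeded that share in 2 libraries.

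In pericytes, Kcnip1 was highest in Tg male 2 (194 CPM (interval 167 to 224)) and lowest in Tg female 2 (28.6 CPM (interval 16.7 to 45.8)), with the other 3 at 69.8 to 101.6 CPM. Kcnq5 was highest in Tg female 1 (101 CPM, others 37.1 to 60.4), Kcnd3 in nTg female 1 (53.1 CPM, others 18.6 to 36.0), and Kcnh1 was lowest in Tg male 1 (22.3 CPM, others 28.6 to 66.8). In smooth muscle Kcnq5, Kcnt1, Kcnip4 and Kcnt2 departed, with ranges of 0 to 161, 22.2 to 173, 30.03 to 139 and 37.5 to 167 CPM. In macrophages Kcnip4 was at 207 CPM (interval 182 to 236) in the library labelled Tg female 1 and 55.3 to 91.6 CPM in the others, and Kcnk6 was lowest in Tg female 2 (31.1 CPM, others 50.5 to 76.9). In lymphatic endothelium Kcnk5 was lowest in Tg male 2 (24.9 CPM (interval 11.4 to 47.3), others 70.8 to 99.9 CPM), and Kcnj13 ran from 32.0 to 110.1 CPM.

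**Figure D5:**
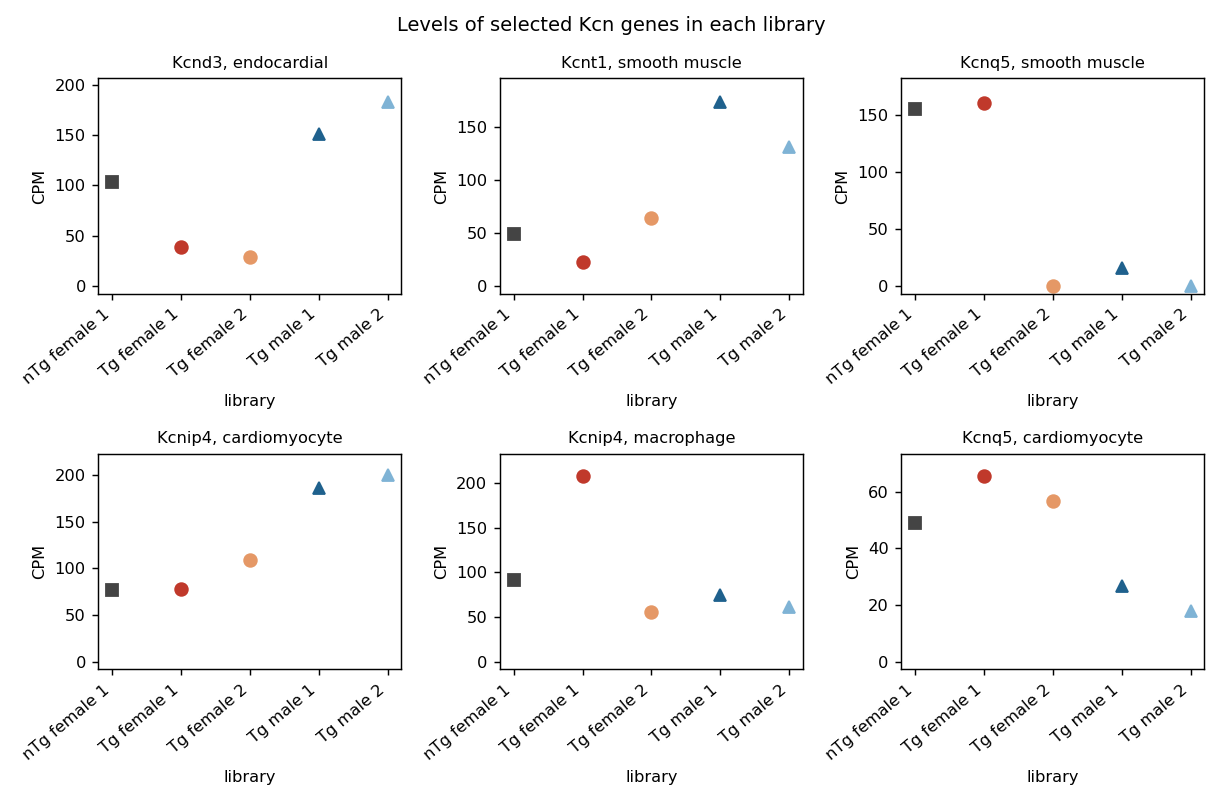
CPM in each of the 5 libraries (linear axes from near 0) for 6 pairs of a Kcn gene and a cell type, with 1 symbol per library. Kcnd3 in endocardium and Kcnt1 in smooth muscle are higher in both males than in any female, Kcnq5 in smooth muscle is high in nTg female 1 and Tg female 1 only, and Kcnip4 in macrophages stands out in Tg female 1.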

How the data were processed

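Nuclear RNA of adult mouse hearts was read with 10x Genomics libraries. The deposited matrices hold counts of UMIs per gene and nucleus, made by the authors with Cell Ranger 7.0.0 per the file headers, on mm10 per the submitters' processing notes. Aligner settings and use of strand are not given in the sources used here. Of 8 samples, 3 were left out because their matrices repeated those of others and did not match their own barcode lists. Nuclei with fewer than 200 genes or over 5% mitochondrial UMIs were removed, as were doublets called by scrublet (expected 6%). In Tg female 2 the automatic cut called 0%, so the median cut of the other 4 libraries (0.1491, 11.4% removed) was used, chosen after seeing the data. This left 34224 of 44839 barcodes. Clustering used scanpy 1.11.5 and leidenalg 0.10.2 (resolution 1, subclusters 0.5) without Kcn genes, Kcnq1ot1, Ccna2 or sex-linked genes, and clusters were named from fixed marker lists.

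UMIs were summed per library and cell type and divided by that sum's total (CPM). Sex was tested with edgeR 4.0.16 (R 4.3.3) by its quasi-likelihood test, with TMM, its expression filter, genotype label as covariate and 2 residual degrees of freedom, adjusted over all genes of a type. On simulated cardiomyocyte counts (16019 genes) it recovered 66% of 2-fold and 100% of 4-fold changes, with 6 false calls. The simulation gave every gene the same dispersion and changed only genes above a minimum level. Its recovery does not describe the other cell types or genes with few UMIs. Sums held 8 tested types with 96.1% of nuclei. Named genes were those at 20 CPM by mean in a tested type, those differing 3-fold between subclusters in every library, those called by sex with the 3 lowest p in cardiomyocytes, fibroblasts and endothelium, and all pairs with a library apart. Subclusters were compared only where all 5 libraries gave 20 nuclei, which is narrower than the rule as first worded. Alternatives were DESeq2 1.42.0, filters, covariates, a replicate block, doublets kept, other clustering and scaling, other thresholds, and leaving out each library. Some genes and sequences of these sets are not reported here. The members and lists were chosen with earlier results of these data known.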

Additional observations from a re-analysis of the deposited data

Results flagged for a closer look

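Of 39 levels examined over the 4 libraries labelled Tg, 2 had a library far from the others, and chance flags about 1 in 20 such groups. Kcnj5 in cardiomyocytes was at 45.9 CPM in the library labelled Tg female 1 and at 27.1 to 29.0 CPM in the other 3. Kcnq5 in smooth muscle was at 160.8 CPM in the same library and at 0 to 15.5 CPM in the other 3, while the library labelled nTg female 1 was at 155.7 CPM.

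Kcnj6 had opposite signs in different cell types, with every female library labelled Tg on one side of both males. It overlaps Gm41505 on the opposite strand, as given above. The log2 difference (female minus male) was 1.86 in cardiomyocytes and -5.13 in fibroblasts. In cardiomyocytes it rested on Tg female 2, at 24.4 CPM, while Tg female 1 was at 4.79 CPM and the males at 3.01 and 4.39 CPM. The library labelled nTg female 1 was at 2.41 CPM, below both males. Without Tg female 2 the cardiomyocyte difference was 0.35, and without each other library labelled Tg it was 1.62 to 2.64. In fibroblasts the levels were 0 and 0.172 CPM in the Tg females and 5.30 and 0.502 CPM in the males, and without Tg male 1 the gene did not pass the filter on low counts. Without each other library labelled Tg the fibroblast difference was -7.41 to -4.08. The difference between the types was not tested, and with all libraries neither value passed the adjusted threshold by edgeR.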

How the results depend on the processing

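The number of Kcn pairs called between the sexes, 2 in all, was 4 with DESeq2, 14 without a filter, 1 with the 4 libraries labelled Tg, 0 without the genotype covariate and 1 with doublets kept. At an unadjusted p under 0.05 without the covariate, edgeR gave 4 of 39 pairs in cardiomyocytes and 5 of 19 in endocardium. It gave 6 of 26 in endothelium, 5 of 41 in fibroblasts and 0 of 7 in lymphatic endothelium. Macrophages gave 1 of 14, pericytes 1 of 18 and smooth muscle 2 of 17. Over all genes, in the same order of types, the counts were 832 of 15123, 697 of 9478, 801 of 13194 and 1109 of 15319. The last 4 types gave 390 of 7170, 747 of 10851, 554 of 10145 and 303 of 5846. Leaving out 1 library gave 5 to 10 calls, where a lone sample was assumed to vary like the other groups. With a replicate block there were 9 calls. Replicate numbers are only names here, since deviations of same-numbered samples correlated at 0.0152 over all nuclei and at -0.209 (smooth muscle) to 0.186 (macrophages) within a cell type. The 64 departures of a library became 16 at a mean of 50 UMIs, 134 at 1.5-fold, 81 with doublets kept (45 shared with the 64), and 46 to 63 without 1 library (37 to 51 shared). The count of 27 leading genes lay between 27 and 32 under the alternatives run, and all 27 were shared each time. TMM over all sums moved 13 of 39 mean levels, all of cardiomyocyte genes, and doublets kept moved 4. Some tested sex differences changed direction with the settings. Of 44 Kcn genes tested in cardiomyocytes, 24 were higher in females by edgeR and 25 by DESeq2. In fibroblasts 30 of 48 were higher in females by edgeR, and 29 with a replicate block. TMM over all sums turned the order of smooth muscle and cardiomyocytes in the summed Kcn level. The causes were not tested. Smooth muscle, with 545 nuclei, was the smallest of the 8 types.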
